A study of Mus musculus with 7 samples.

Results

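The oxidative phosphorylation genes are the nuclear and mitochondrial genes for the 4 complexes of the respiratory chain and for ATP synthase. They were chosen by symbol alone, from the families Nduf, Sdha to Sdhd, Uqcr, Cox4 to Cox8 and Atp5 and from the protein-coding genes of the mitochondrial genome, with pseudogene symbols left out. The rule found 111 features among 55357, of which 98 are nuclear and 13 mitochondrial, and 1 of them had no molecule in the barcodes kept. By role, the nuclear members were 41 subunits and 8 assembly factors of complex I, 4 subunits of complex II, 8 of complex III, 19 of complex IV and 18 of ATP synthase, and the symbol Atp5o stands for a pair of features among the last. Cox4i1, Cox4i2 and Atpif1 fall outside the rule and are given only as context.

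The study compared livers of mice in which hydrodynamic injection into the tail vein had delivered plasmids for Nras and C-myc, a way of starting hepatocellular carcinoma in place. Tissue was taken 2 weeks later from 3 control samples and from 4 samples of mice that had also received an IL-2/CD25 expression plasmid (here IL-2/CD25 samples), so that all 7 samples carry the oncogene plasmids. Strain, sex and age are not stated, nor whether immune cells were enriched. The labels do not say that each sample is a separate animal, so p-values measure only the spread between these samples. All 7 share 1 batch label.

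Oxidative phosphorylation passes electrons from NADH (complex I) and succinate (complex II) through ubiquinone to complex III, then by cytochrome c to complex IV and oxygen. The protons pumped on the way drive ATP synthase, also called complex V. Most subunits are encoded in the nucleus and imported, whereas the mitochondrial genome supplies a small core of complexes I, III, IV and V that is transcribed as long precursors and cut into single RNAs. In immune cells this machinery is known to be remodelled upon activation, together with glycolysis.

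Cells were profiled with 3′ single-cell RNA sequencing, in which each molecule counts once by its unique molecular identifier (UMI). The deposited matrices held 76438139 to 181755269 UMIs per control sample and 37653600 to 47881379 per IL-2/CD25 sample. After filtering, 62304 barcodes remained, of which 47574 were assigned to a cell class by marker genes, and pairs of samples shared 14 to 37 barcode sequences. In the IL-2/CD25 samples, Il2ra reached 43.3 to 70.1 CPM over all kept barcodes (CPM, UMIs per 1000000 UMIs) against 1.12 to 3.51 in controls. Nras was at 84.8 to 98.7 CPM against 987 to 2461 CPM in controls. The make-up of the tissue also differed: NK cells and type 1 innate lymphoid cells (ILC1) numbered 2452 to 3503 per IL-2/CD25 sample and 127 to 225 per control, whereas monocytes and macrophages numbered 112 to 205 and 1523 to 2099. All levels below are therefore within a class, as CPM of the UMIs summed over its cells in a sample.

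Among the classes compared in control samples, the summed level of the nuclear members was highest in keratin-high tumour-like cells, at 26142 ± 588 CPM (SD, n = 3). That class is named from Krt8, Krt18, Krt19, Krt7, Cdkn2a and Epcam. Mature dendritic cells were not among the classes compared. CD8 T cells were at 25778 ± 987 CPM, monocytes and macrophages at 24439.7 ± 748 CPM, and type 1 conventional dendritic cells (cDC1) at 23389 ± 1513 CPM. CD4 T cells, NK cells and ILC1, and plasmacytoid dendritic cells lay between 20625 and 21511 CPM. B cells followed at 17109.5 ± 1753 CPM and neutrophils at 13725 ± 1356 CPM. Neighbours in this order overlapped in their samples except B cells and neutrophils, the class with the lowest level. Under the IL-2/CD25 plasmid the order was another, with plasmacytoid dendritic cells first among the immune classes compared at 16642 ± 1189.8 CPM (SD, n = 4). CD8 T cells were at 13649.7 ± 613 CPM, B cells at 10797 ± 823 CPM and neutrophils last at 10193 ± 645 CPM. Neighbours again overlapped, except CD8 T cells and B cells.

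Within control samples, 54 of 103 tested members were higher and 17 lower in keratin-high cells than in monocytes and macrophages (edgeR quasi-likelihood test with each sample as a block, Benjamini-Hochberg adjusted p below 0.05 over all features tested). In that comparison 80.7% of all features were called, 40.8% higher and 39.8% lower, so the share of members called is below the background. The complex I assembly factor Ndufaf6 was at 37.1, 31.9 and 36.6 CPM in keratin-high cells and at 8.88, 7.46 and 10.4 CPM in monocytes and macrophages, a log2 difference of 2.08 ± 0.10 (SE). Ndufaf2, another assembly factor, differed by 1.95 ± 0.09, and Uqcr11, a small subunit of complex III, by 1.19 ± 0.07. Ndufv3, an accessory subunit next to the NADH site of complex I, went the other way, at 106, 114 and 107 CPM against 354, 339.8 and 327 CPM (−1.55 ± 0.06).

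Neutrophils were lower than monocytes and macrophages of the same control samples for 83 of 103 members and higher for 3, where 67.2% of all features were called, 35.2% lower and 32% higher. All 13 mitochondrial members were among the 83, with mt-Nd2 at 448, 392 and 460.4 CPM in neutrophils against 1334, 1292 and 1149 CPM (log2 −1.06 ± 0.09). Atp5g1, one of 3 genes for the c ring of ATP synthase, was lower by 1.16 ± 0.09 on the log2 scale. Cox8a, a small complex IV subunit, was higher by only 0.26 ± 0.07, and that call was lost without control sample 1 (0.23, adjusted p = 0.126).

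With the IL-2/CD25 plasmid, the summed nuclear members were lower than in controls in each of the 8 immune classes tested, and in none did the samples of the groups overlap. In CD8 T cells the sum was 26069, 24678 and 26586 CPM in controls and 13541, 13462, 13078 and 14518 CPM with the plasmid, 0.53 times the control mean. In monocytes and macrophages it was 24265, 23795 and 25259 CPM against 15050.1, 15613, 14725 and 17578 CPM, or 0.64 times. B cells were at 0.63 times, cDC1 at 0.68, NK cells and ILC1 at 0.70, CD4 T cells at 0.72 and neutrophils at 0.74. Plasmacytoid dendritic cells differed least, from 20810.4, 18525 and 22539 CPM to 16091, 16182, 15878 and 18416 CPM, 0.81 times, and after subtraction of estimated free RNA the difference of the means there was −505.2 CPM.

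The 13 mitochondrial members did not follow. Their sum in CD8 T cells was 9979, 11899 and 8948 CPM in controls and 15939.5, 18427, 19867 and 16929 CPM with the plasmid, 1.73 times the control mean. In B cells it was 11189.5, 12289 and 9654 CPM against 17632, 19065, 20653 and 18171 CPM, 1.71 times. CD4 T cells stood at 1.56 times and monocytes and macrophages at 1.47 times, both without overlap between the groups. In neutrophils, NK cells and ILC1, cDC1 and plasmacytoid dendritic cells the groups overlapped, so no difference larger than the spread was seen there. Put as a ratio, CD8 T cells held 0.40 mitochondrial UMIs per nuclear member UMI in controls and 1.31 with the plasmid, monocytes and macrophages 0.39 and 0.90, and B cells 0.65 and 1.76.

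**Figure D1:**
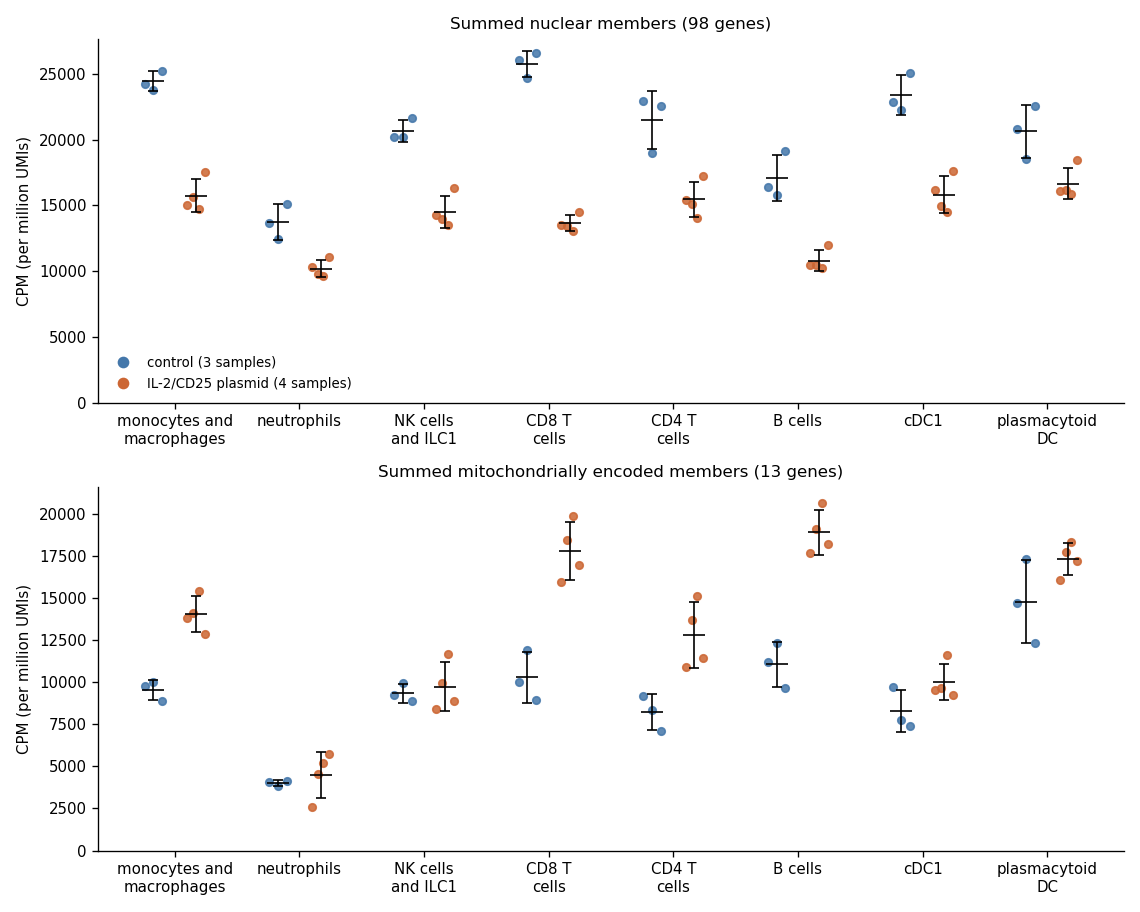
Summed level, in CPM, of the 98 nuclear members (upper panel) and of the 13 mitochondrial members (lower panel) in 8 immune classes, with 1 point per sample and bars at the mean ± SD of 3 control or 4 IL-2/CD25 samples. In the upper panel every class has its IL-2/CD25 samples below its controls, as in CD8 T cells at 13078 to 14518 against 24678 to 26586; in the lower panel CD8 T cells, B cells, CD4 T cells and monocytes and macrophages lie above.

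Gene by gene, the samples were compared with edgeR's quasi-likelihood test on summed UMIs in each class. All 8 comparisons rest on the same 7 samples, so they are given side by side and not as repeats. In CD8 T cells 79 of 99 tested members fell and 8 rose, where 58.4% of all features were called, 30.4% lower and 28% higher. In monocytes and macrophages 80 of 100 fell and 8 rose, with 54.8% of all features called, 27.3% lower and 27.5% higher. In B cells 75 of 98 fell and 6 rose (37.6% of all features, 22.1% lower and 15.5% higher), and in NK cells and ILC1 74 of 103 fell and 2 rose (51.2%, 26.6% and 24.7%). In neutrophils 71 of 91 fell and 2 rose (55%, 28.7% and 26.3%), and in cDC1 69 of 95 fell and 5 rose (33.5%, 16.9% and 16.6%). The members called in these 6 classes were mostly lower, whereas all features were split nearly evenly, least so in B cells.

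The counts of called members moved by more than 1.5 times under some alternatives in CD4 T cells, plasmacytoid dendritic cells and cDC1. In CD4 T cells, with 33 to 56 cells per control sample, 46 of 97 members fell and 6 rose (12.1% of all features called, 7.12% lower and 4.95% higher), and the 52 calls became 20 without control sample 1, 24 without control sample 3 and 19 after subtraction of free RNA. In plasmacytoid dendritic cells 45 of 98 fell and 2 rose (23.7%, 13.8% and 9.92%), and the 47 calls became 9 after that subtraction. The cDC1 count of 74 became 42 when barcodes with markers of more than 1 class were kept.

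The median nuclear member changed by −1.11 (log2) in CD8 T cells, −0.88 in B cells, −0.81 in neutrophils, −0.80 in monocytes and macrophages, −0.66 in cDC1, −0.61 in NK cells and ILC1, −0.60 in CD4 T cells and −0.46 in plasmacytoid dendritic cells. In the last class the median over all members became −0.07 after free RNA subtraction and −0.33 with a stricter gate. The median of all features tested lay between −0.01 and 0.04 in these classes. These fitted changes use a trimmed-mean scaling, and for members they are lower than the plain ratio of CPM by a median of 0.29 in neutrophils, 0.17 in monocytes and macrophages, 0.14 in B cells, 0.12 in plasmacytoid dendritic cells, 0.11 in CD4 T cells and under 0.1 in the other classes.

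**Figure D2:**
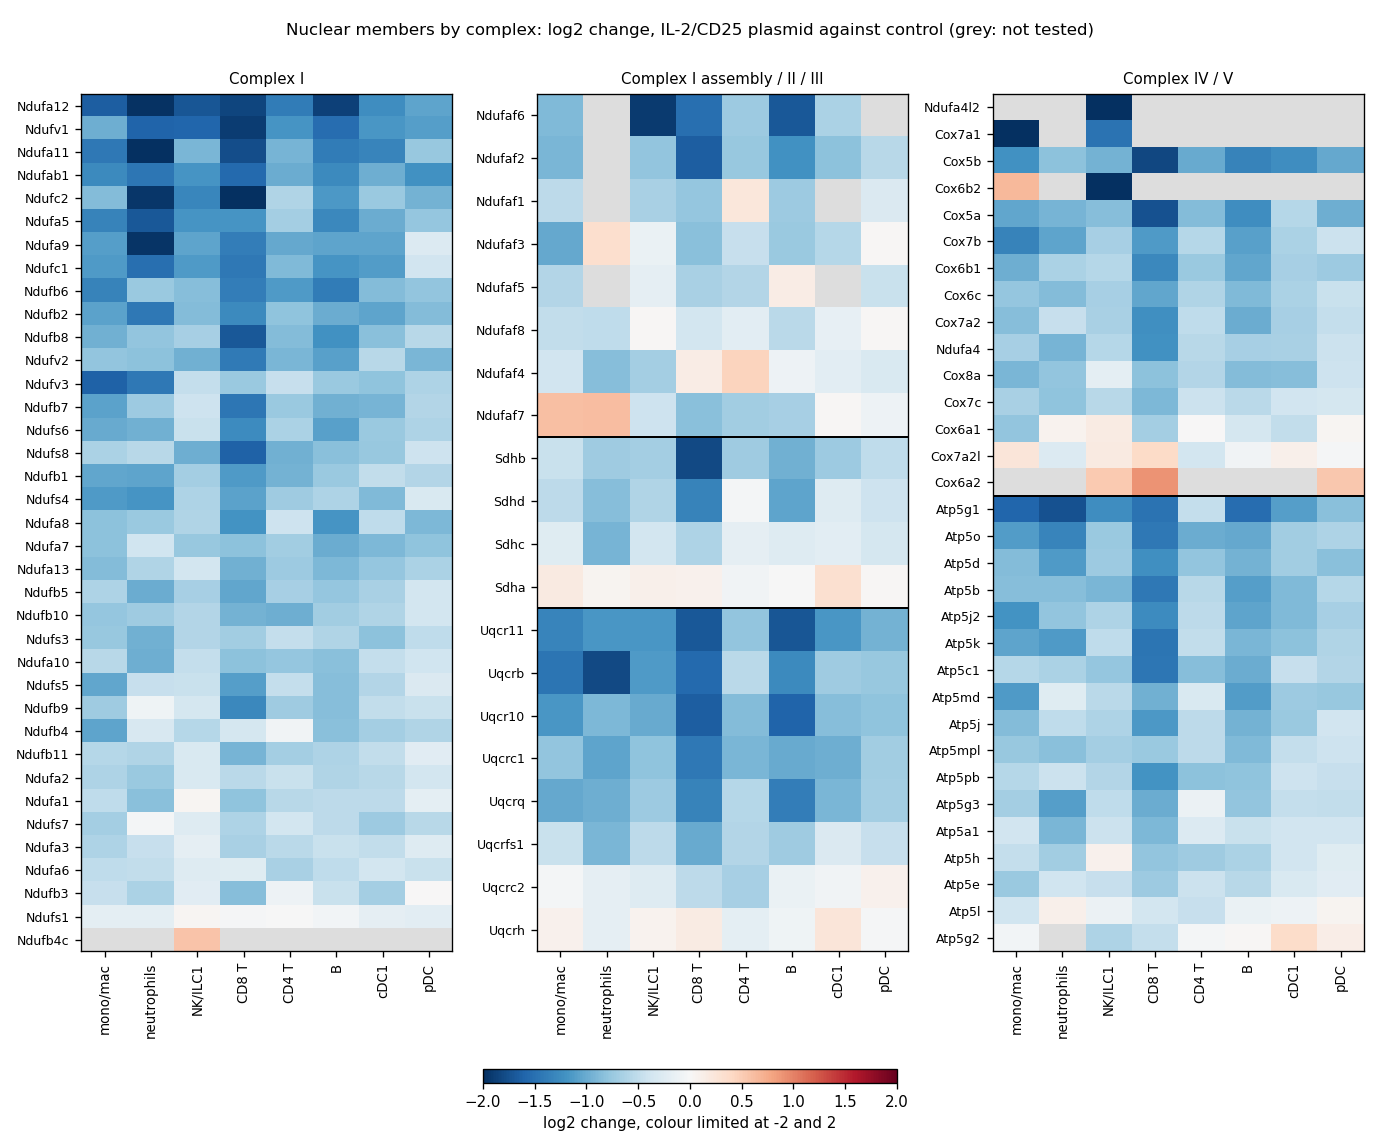
Log2 change with the IL-2/CD25 plasmid of the tested nuclear members but 1 (rows, by complex) in 8 classes (columns), blue for lower and red for higher, with the colour limited at −2 and 2 and untested pairs in grey. Most cells are blue; the pale rows Ndufs1, Sdha and Uqcrh were tested in all 8 classes and called in none.

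Promoter sequences are shown for members at both ends of that range. Ndufa11 and Uqcr11 fell in every class tested, although Uqcr11 turned to 0.14 in plasmacytoid dendritic cells after free RNA subtraction, and Sdha and Uqcrh were called in none. Each is the 120 bases before the gene's start on its own strand, from the RefSeq table of GRCm38.p6, with matches to an NRF1 or an ETS motif in capitals, both being motifs of factors known to bind promoters of respiratory chain genes.
Uqcr11, chr10:80406822-80406941, minus strand: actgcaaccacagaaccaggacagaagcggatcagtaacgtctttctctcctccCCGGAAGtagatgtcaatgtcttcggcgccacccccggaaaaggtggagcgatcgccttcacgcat
Ndufa11, chr17:56717642-56717761, plus strand: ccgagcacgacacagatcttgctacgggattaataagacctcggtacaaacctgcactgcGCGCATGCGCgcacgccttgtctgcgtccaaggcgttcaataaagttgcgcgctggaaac
Sdha, chr13:74350241-74350360, minus strand: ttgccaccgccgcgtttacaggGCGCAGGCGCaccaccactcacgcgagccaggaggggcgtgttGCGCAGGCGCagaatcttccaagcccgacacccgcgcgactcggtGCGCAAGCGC
Uqcrh, chr4:116075071-116075190, minus strand: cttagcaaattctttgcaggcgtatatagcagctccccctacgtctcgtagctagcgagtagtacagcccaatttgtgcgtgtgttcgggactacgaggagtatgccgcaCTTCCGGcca
Both pairs hold a match: the ETS letters CCGGAAG in Uqcr11 and, on the other strand, in Uqcrh, and the NRF1 motif, searched on both strands, in Ndufa11 and Sdha. Over the 250 bases before the start, 14 of 77 distinct nuclear genes with a promoter in the table held the NRF1 motif (18.2%) against 4.23% of 27025 genes, and 14 held the ETS letters (18.2%) against 7.83%. The SP letters GGGGCGGGG were in 10 members (12.99%) against 11.8% of all genes. A YY1 and an ERR motif were also searched and were each in 1 member (1.3%), against 0.71% and 0.42%. The background was every gene in the table, not only genes expressed in these cells. The motifs searched did not overlap in these 4 stretches, and a match is only a string of letters.

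Complex I takes electrons from NADH, and 35 of 37 tested nuclear subunits fell in CD8 T cells, 36 in monocytes and macrophages, 35 in B cells and cDC1, 33 in neutrophils and 30 of 38 in NK cells and ILC1. In CD4 T cells 26 of 37 fell and in plasmacytoid dendritic cells 20 of 37. Of all features tested, 30.4% fell in CD8 T cells, 27.3% in monocytes and macrophages, 22.1% in B cells and 16.9% in cDC1. The share was 28.7% in neutrophils, 26.6% in NK cells and ILC1, 7.12% in CD4 T cells and 13.8% in plasmacytoid dendritic cells. These shares also apply to the counts for complexes III, IV and V below. Ndufv1 carries the flavin that first accepts the electrons. In CD8 T cells it was at 101, 95.1 and 109.5 CPM in controls and at 24.3, 31.9, 29.9 and 31.5 CPM with the plasmid, with no overlap (log2 −1.90 ± 0.12, adjusted p = 1.49e-07, edgeR). It fell in all 8 classes, by 0.97 in monocytes and macrophages to 1.90 in CD8 T cells. The CD4 T cell call was lost without control sample 1 (−1.16, adjusted p = 0.0653) and without dividing cells (−0.53, adjusted p = 0.603).

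Ndufs1, the largest iron-sulfur subunit of the same arm, was not called in any class. Its CD8 T cell levels were 40.9, 51.9 and 45.8 CPM in controls and 44.9, 45.5, 48.7 and 49.1 CPM with the plasmid, and the groups overlapped (log2 −0.02 ± 0.12, adjusted p = 0.971). Its log2 change was between −0.21 and 0.04 across the 8 classes. Subunits of one arm thus differed in size of change: in CD8 T cells the core iron-sulfur subunit Ndufs8 changed by −1.61, while Ndufs7 changed by −0.62.

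Among the accessory subunits, Ndufa12 fell in all 8 classes. In NK cells and ILC1 it was at 86.5, 75.2 and 75.5 CPM in controls and at 23.8, 23.2, 18.3 and 30.8 CPM with the plasmid (log2 −1.71 ± 0.19, adjusted p = 1.43e-05). In monocytes and macrophages it was at 73.0, 88.8 and 81.0 CPM against 24.8, 45.8, 24.2 and 25.6 CPM, again without overlap although IL-2/CD25 sample 2 stood above its group (−1.65 ± 0.18). It also fell in neutrophils (−1.98), B cells (−1.87), CD8 T cells (−1.84), CD4 T cells (−1.40), cDC1 (−1.24) and plasmacytoid dendritic cells (−1.06). The last of these was lost without control sample 3 (−0.55, adjusted p = 0.106), with a stricter gate (−0.67, adjusted p = 0.0796) and after free RNA subtraction (−0.31, adjusted p = 0.586), and the CD4 T cell call without control sample 1 (−1.29, adjusted p = 0.0654).

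Ndufa11, a subunit of the membrane arm, was at 125, 125 and 145 CPM in control neutrophils and at 37.7, 37.6, 26.3 and 48.0 CPM with the plasmid (log2 −2.10 ± 0.16, adjusted p = 9.72e-07). Ndufc2, also in the membrane arm, was at 223, 282 and 231 CPM in control CD8 T cells and at 58.4, 63.6, 65.9 and 68.0 CPM with the plasmid (−2.005 ± 0.10). Every control lay above every IL-2/CD25 sample for both. Ndufab1, the acyl carrier protein that is also a complex I subunit, fell in monocytes and macrophages from 76.1, 86.4 and 93.4 CPM to 32.5, 45.8, 29.2 and 48.9 CPM (−1.27 ± 0.16). Ndufb4c, a feature with at most 4.62 CPM in NK cells and ILC1, was tested there alone and not called, and its transcript end is wholly shared with another gene.

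The 8 assembly factors build complex I but are no part of it. Of them 6 fell in CD8 T cells, 5 in monocytes and macrophages (with 1 higher), 4 in B cells and 5 in NK cells and ILC1, where 30.4%, 27.3%, 22.1% and 26.6% of all features fell. In neutrophils 1 of 4 tested fell and 1 rose, and in cDC1 1 of 6 fell, where 28.7% and 16.9% of all features fell. None was called in CD4 T cells, of 8 tested, or in plasmacytoid dendritic cells, of 7 tested. Ndufaf6 was at 9.11, 7.69 and 13.9 CPM in control NK cells and ILC1 and at 2.29, 1.98, 3.16 and 2.77 CPM with the plasmid (log2 −1.92 ± 0.33, adjusted p = 0.000438). Free RNA in this class was estimated at 13.9% to 39.3% in controls and 4.3% to 8.3% with the plasmid. Ndufaf6 was also high in keratin-high cells of controls, and its call here was not checked after free RNA subtraction. Ndufaf7, in human a methyltransferase acting on a complex I subunit, was one of few nuclear members to rise. It was at 19.7, 17.6 and 19.7 CPM in control monocytes and macrophages and at 31.7, 36.4, 40.3 and 24.5 CPM with the plasmid, without overlap (0.60 ± 0.15, adjusted p = 0.00659), and it rose by 0.62 in neutrophils. The neutrophil call was lost without control sample 1 (0.44, adjusted p = 0.106). The same gene fell by 0.84 in CD8 T cells and by 0.41 in NK cells and ILC1.

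Complex II, encoded wholly in the nucleus, oxidises succinate and is shared with the citric acid cycle. Its catalytic flavoprotein Sdha was called in no class, with log2 changes of −0.07 to 0.33. In CD8 T cells Sdha was at 107, 129.7 and 102 CPM in controls and at 113, 131, 135 and 123 CPM with the plasmid, and the groups overlapped (0.09 ± 0.11, adjusted p = 0.468). Sdhb, the iron-sulfur subunit that takes electrons from Sdha, was at 170.1, 156 and 177 CPM against 53.4, 57.0, 35.5 and 59.3 CPM in the same cells, with no overlap (−1.80 ± 0.16, adjusted p = 1.42e-06). Sdhb fell in 7 of 8 classes, by 0.44 to 1.80, and was not called in CD4 T cells (−0.72). The 2 membrane anchors lay between: in CD8 T cells Sdhd changed by −1.33 and Sdhc by −0.62, both called.

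In complex III, which hands electrons to cytochrome c, 7 of 8 nuclear subunits fell in CD8 T cells, 6 in monocytes and macrophages, neutrophils, NK cells and ILC1, CD4 T cells and B cells, and 5 in cDC1 and plasmacytoid dendritic cells. Uqcrb, which helps to bind ubiquinone, was at 155, 155 and 168 CPM in control neutrophils and at 55.3, 49.3, 55.2 and 64.2 CPM with the plasmid (log2 −1.80 ± 0.12, adjusted p = 3.73e-07). Uqcr11 fell in all 8 classes, by 0.79 to 1.71, but in plasmacytoid dendritic cells free RNA subtraction turned its change to 0.14 (adjusted p = 0.713). Its B cell controls were spread widely, at 257, 187 and 493 CPM, yet all lay above the IL-2/CD25 samples at 90.3, 107, 105 and 134 CPM (−1.71 ± 0.26, adjusted p = 0.000332).

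Uqcrh, the hinge protein beside cytochrome c1, was called in no class (−0.20 to 0.23). In monocytes and macrophages its CPM was 567, 533 and 575 in controls and 637, 633, 659 and 743 with the plasmid. These CPM values do not overlap, but the fitted change, after the scaling that shifts this class by 0.17, was 0.09 ± 0.10 (adjusted p = 0.451). Uqcrc2, a core subunit, fell in CD8 T cells (−0.53) and CD4 T cells (−0.66) and was called in no other class, whereas its partner Uqcrc1 fell in 7 classes, by 0.80 to 1.43, and was not called in plasmacytoid dendritic cells (−0.69).

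Complex IV passes electrons to oxygen, and its nuclear members include isoform pairs. Of the subunits every tissue uses, Cox5b was at 766, 638 and 764 CPM in control CD8 T cells and at 219, 213, 189.9 and 249.6 CPM with the plasmid, well apart (log2 −1.82 ± 0.13, adjusted p = 2.26e-07). It fell in all 8 classes, and Cox5a and Cox6b1 did too. In plasmacytoid dendritic cells, free RNA subtraction ended the calls of Cox5b (−0.50, adjusted p = 0.112) and Cox5a (−0.52, adjusted p = 0.0816). Between 9 and 11 nuclear subunits of complex IV fell in 6 of the classes and 6 fell in CD4 T cells and in plasmacytoid dendritic cells, of 11 to 15 tested.

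Cox6a1, the common form of subunit 6a, was at 315, 311 and 299 CPM in control monocytes and macrophages and at 188, 177, 202 and 229 CPM with the plasmid (log2 −0.79 ± 0.10, adjusted p = 6.69e-05). In NK cells and ILC1 it was at 203, 206 and 219 CPM against 228, 215, 229 and 267 CPM, overlapping and not called (0.16 ± 0.11, adjusted p = 0.253). Cox6a2, the form known from heart and skeletal muscle, was high among the 8 classes in plasmacytoid dendritic cells, for which it was kept out of the marker gate. It stood there at 1053, 751 and 687 CPM in controls and at 1161, 1370.1, 1286 and 1361 CPM with the plasmid, against group means of 1.22 to 19.8 CPM in the other 7 classes and of 3.57 and 41.0 CPM in endothelial cells.

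The IL-2/CD25 samples were above every control for Cox6a2 in plasmacytoid dendritic cells (log2 0.53 ± 0.14, adjusted p = 0.0158). That call was lost without IL-2/CD25 sample 2 (0.51, adjusted p = 0.0528), with a stricter gate (0.15), without dividing cells (0.28) and after subtraction of free RNA (0.17). In this class the share of free RNA was estimated at 26.5% to 58.9% in controls and 15.2% to 26.2% with the plasmid.

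**Figure D3:**
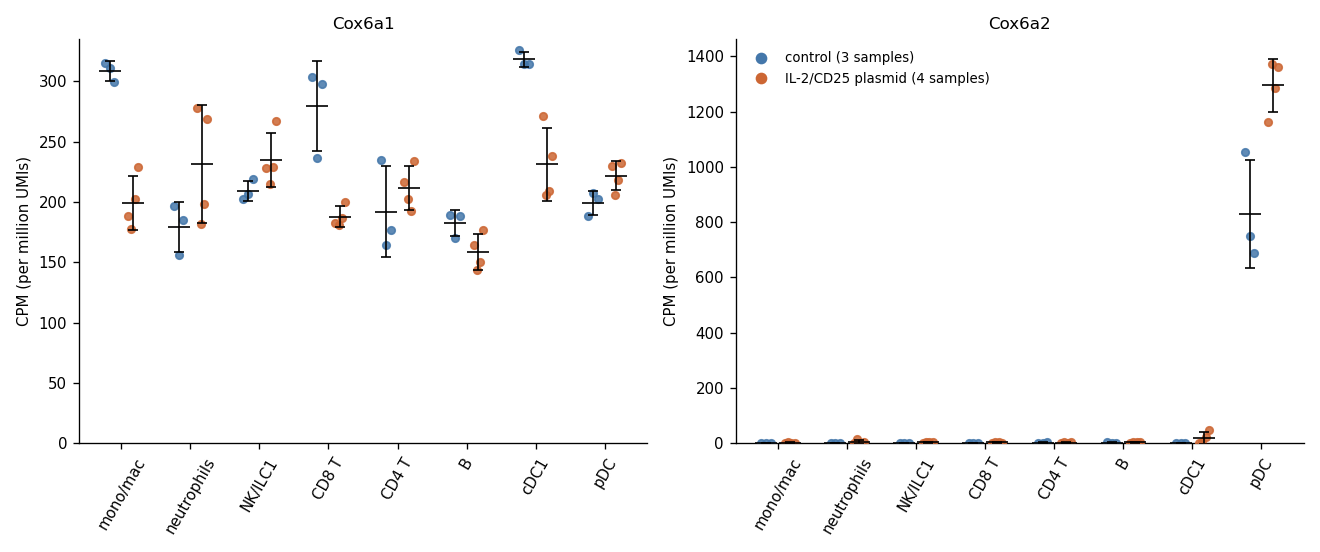
Levels in CPM of the isoforms Cox6a1 (left) and Cox6a2 (right) in 8 classes, 1 point per sample, with the mean ± SD of 3 control or 4 IL-2/CD25 samples. Cox6a1 is present in every class, whereas Cox6a2 stands at 687 to 1370.1 in plasmacytoid dendritic cells and near the axis elsewhere.

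Other isoforms of complex IV were rare. Cox7a1, the muscle form of subunit 7a, was at 7.80, 7.09 and 7.32 CPM in control monocytes and macrophages and at 0.856, 1.18, 0 and 1.14 CPM with the plasmid, or 482 UMIs against 4 (log2 −3.29 ± 0.43, adjusted p = 6.35e-05). Cox7a2l, a factor that helps complexes III and IV to associate, rose in CD8 T cells from 375, 367 and 343 CPM to 526, 491, 484 and 496 CPM (0.38 ± 0.10, adjusted p = 0.00513). That call was lost without dividing cells (0.22, adjusted p = 0.177). Ndufa4l2, a paralogue of Ndufa4 known to be induced by hypoxia, had 27 UMIs in control NK cells and ILC1 and 1 with the plasmid, and 160 and 0 in monocytes and macrophages. Depth was unequal: all genes of NK cells and ILC1 held 648745 to 1821550 UMIs per control sample and 9604990 to 14078000 with the plasmid. Monocytes and macrophages held 19129500 to 23977600 and 850959 to 1757040. In keratin-high cells Ndufa4l2 had 1034 UMIs in controls (9.04 ± 0.76 CPM, SD, n = 3) and none with the plasmid, where 2 of 4 samples reached 20 cells.

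Those keratin-high cells were not tested between groups. They numbered 638, 427 and 1648 in controls and 79, 13, 96 and 16 with the plasmid, and in the 2 IL-2/CD25 samples with enough cells the 4 cholangiocyte markers summed to 1354 and 1577 CPM against 137 to 227 CPM in controls. Cox7a1 was there at 3.55, 4.02 and 3.54 CPM in controls and at 49.3 and 153 CPM in those 2 samples, and Ndufv3 at 106, 114 and 107 CPM and at 173 and 219.8 CPM. What differs between groups in this class cannot be told apart from which keratin-high cells were sampled.

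ATP synthase uses the proton gradient to make ATP, and 16 of 17 tested nuclear subunits fell in monocytes and macrophages and in CD8 T cells, 15 in NK cells and ILC1 and in B cells, 14 of 16 in neutrophils and 14 of 17 in cDC1. In plasmacytoid dendritic cells 10 of 17 fell and in CD4 T cells 7 of 17. The catalytic subunit gene Atp5b was at 635, 723 and 705 CPM in control CD8 T cells and at 278, 260.1, 263 and 285 CPM with the plasmid (log2 −1.42 ± 0.10, adjusted p = 2.62e-07). Atp5g1 was at 353, 415 and 400.01 CPM in control monocytes and macrophages and at 163, 130.4, 114 and 170.2 CPM with the plasmid (−1.58 ± 0.15, adjusted p = 4.82e-06). The groups stood apart for both. Atp5g1 fell in 7 classes and was not called in CD4 T cells (−0.48). Atp5l in monocytes and macrophages was at 164, 181 and 175 CPM against 130.0, 122, 145 and 186 CPM, and its groups overlapped (−0.40 ± 0.14, adjusted p = 0.0258). The ATP synthase inhibitor Atpif1, outside the rule, had 353 ± 80.0 CPM in control CD8 T cells and 68.7 ± 5.88 CPM with the plasmid.

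The mitochondrial members split by gene. mt-Nd1, mt-Nd2, mt-Nd3, mt-Nd4 and mt-Cytb rose in CD8 T cells, CD4 T cells, B cells, cDC1 and monocytes and macrophages. mt-Nd2 was at 1431, 1705 and 1228 CPM in control CD8 T cells and at 3385, 3817, 4091 and 3419 CPM with the plasmid (log2 1.26 ± 0.11, adjusted p = 1.47e-06). mt-Nd1 was at 1873, 1988 and 1466 CPM in control B cells and at 3744, 3633, 3973 and 3742 CPM with the plasmid (0.97 ± 0.10, adjusted p = 2.45e-05). Every IL-2/CD25 sample lay far above every control for both. mt-Cytb, the only complex III gene of the mitochondrial genome, rose in monocytes and macrophages from 2359, 2578 and 2358 CPM to 3829, 3943, 4314 and 3492 CPM (0.50 ± 0.10, adjusted p = 0.000913). Some rises were fragile: mt-Nd3 in CD4 T cells lost its call without control sample 3 (0.76, adjusted p = 0.0724). With doublets kept, the cDC1 calls of mt-Nd1, mt-Nd2, mt-Nd3, mt-Nd4 and mt-Cytb were all lost. Their changes there were 0.10 to 0.58 (edgeR, adjusted p of 0.0603 to 0.692). Leaving out single samples ended the call of mt-Cytb and of mt-Nd4 in cDC1 and in CD4 T cells, with mt-Cytb in cDC1 at 0.22 to 0.33 and mt-Nd4 in CD4 T cells at 0.38 to 0.51, and of mt-Nd6 in monocytes and macrophages, at 0.34 to 0.54, and in NK cells and ILC1, at 0.33 to 0.49.

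Other mitochondrial members fell in the same cells. mt-Nd5 was at 751, 729 and 641 CPM in control NK cells and ILC1 and at 299, 341, 403 and 283 CPM with the plasmid, without overlap (log2 −1.11 ± 0.12, adjusted p = 1.54e-05). It fell in 6 classes and was not called in CD8 T cells (−0.20) or CD4 T cells (−0.46). mt-Atp8 fell in all 8 classes, by 0.50 to 1.34. In cDC1 it was at 214, 115 and 129.6 CPM in controls and at 72.6, 75.5, 70.3 and 47.3 CPM with the plasmid (−1.24 ± 0.22, adjusted p = 0.00106). mt-Atp8 shares a transcript with mt-Atp6, and mt-Nd4l shares one with mt-Nd4.

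mt-Co1, the catalytic subunit of complex IV, fell in neutrophils from 786, 838 and 733 CPM to 237, 403, 480.0 and 489 CPM (log2 −1.26 ± 0.20, adjusted p = 0.000235) and changed by −0.04 in CD8 T cells and 0.01 in B cells, uncalled in both. In neutrophils mt-Nd2 ranged from 469 to 1084 CPM with the plasmid against 392 to 460.4 CPM (0.66 ± 0.22), a call lost without IL-2/CD25 sample 4 (0.54, adjusted p = 0.0591), without control sample 1 (0.64, adjusted p = 0.0587) or without control sample 2 (0.58, adjusted p = 0.0624). mt-Atp6 in CD8 T cells (0.35) lost its call without any of 5 single samples, at 0.27 to 0.37.

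**Figure D4:**
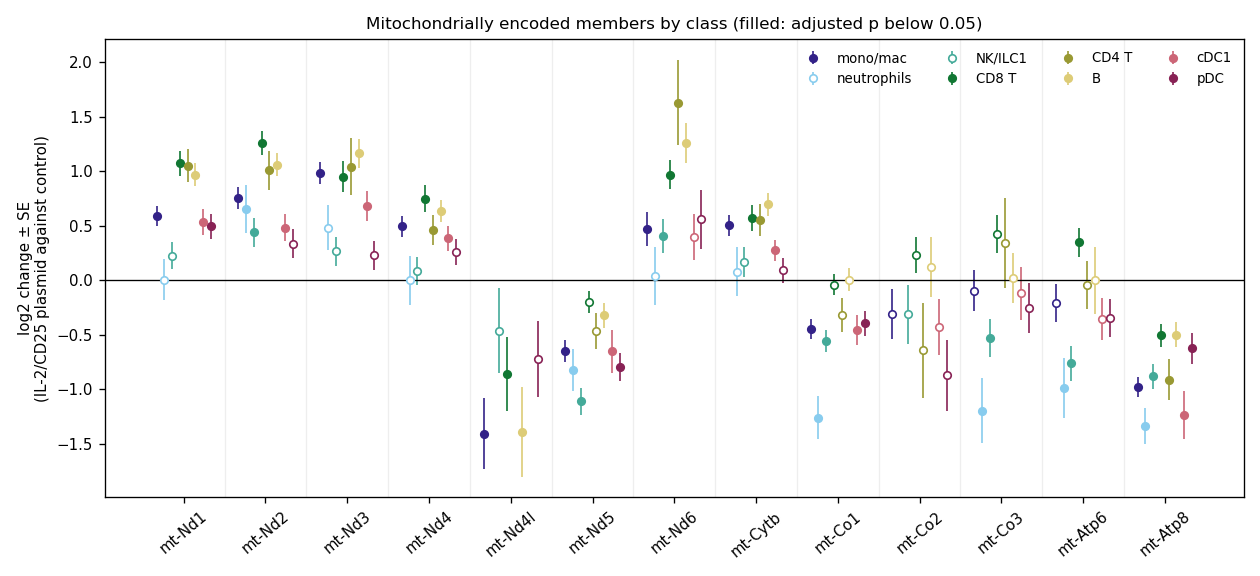
Log2 change ± SE with the IL-2/CD25 plasmid of the 13 mitochondrial members in 8 classes; filled points have an adjusted p below 0.05 and missing points were not tested. mt-Nd1, mt-Nd2, mt-Nd3 and mt-Nd4 lie near or above 0, up to 1.26 for mt-Nd2 in CD8 T cells, and mt-Nd5 and mt-Atp8 below 0.

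Some of these counts could be affected by sequence shared with other genes. In the GENCODE M21 annotation, 51 of 111 members share at least 1 stretch of 60 bases with another gene in the last 400 bases of a transcript, and 12 share over 50% of them. Among the mitochondrial members the share was 100% for mt-Co1 and mt-Co2, 99.7% for mt-Co3, 99.1% for mt-Atp6, 98.7% for mt-Nd4l and 97.9% for mt-Nd3, with nuclear copies named Gm10925, Gm13340, Gm13341, Gm28437, Gm28661 and others, and 0% for mt-Nd1, mt-Cytb and mt-Atp8. The last 60 bases of a gene with a copy and one without, from GRCm38 chromosome M, plus strand, show this. Capitals mark bases that also occur in Gm13341.
mt-Co2, chrM:7637-7696: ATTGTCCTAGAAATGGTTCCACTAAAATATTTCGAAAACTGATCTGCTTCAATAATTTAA
mt-Nd1, chrM:3648-3707: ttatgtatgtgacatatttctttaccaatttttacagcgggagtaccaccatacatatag
No source used here says how such reads were counted. Levels of mt-Co1, mt-Co2, mt-Co3, mt-Atp6, mt-Nd3 and mt-Nd4l are therefore uncertain, and so is their part in the summed mitochondrial members. To a lesser degree this also holds for mt-Nd2, which shares 20.5% with Gm13339, and for mt-Nd5, which shares 1.8% with Gm4076. Over all kept barcodes mt-Co2 was at 16.0 to 27.4 CPM, mt-Co3 at 21.3 to 34.3 CPM and mt-Co1 at 978 to 1487 CPM. The copies Gm13341 and Gm28437 were at 0.498 to 0.924 and 1.28 to 3.25 CPM, and mt-Nd1 at 1789 to 3055 CPM. mt-Nd1 and mt-Cytb, which rose, and mt-Atp8, which fell, share no stretch of 60 bases with another annotated gene at their ends. Only annotated transcripts were searched, so a copy without a gene model would be missed and their levels may be affected too. Of the nuclear members above, Atp5l shares 52.1%, Atp5g1 37.3%, Ndufab1 29.3%, Ndufa12 23.6%, Uqcrb 18.0% and Cox5b 16.9%.

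CD8 T cells were compared with NK cells and ILC1 within the 4 IL-2/CD25 samples. In CD8 T cells 30 of 101 members were higher and 23 lower, with 59.4% of all features called, 29.7% higher and 29.8% lower, and 12 of the 13 mitochondrial members were higher. mt-Nd1 was at 3746, 3902, 4290.1 and 3868 CPM in CD8 T cells and at 1513, 1671, 1937 and 1562 CPM in NK cells and ILC1 (log2 1.31 ± 0.05). Ndufaf4, a complex I assembly factor, was at 49.1, 50.3, 51.6 and 52.7 CPM against 20.7, 25.7, 24.6 and 21.8 CPM (1.21 ± 0.08). The groups of values were clearly apart for both genes. Fitted without the sample as a block, the 53 calls became 34.

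Whether the plasmid's effect differed between NK cells and ILC1 and monocytes and macrophages was tested as an interaction within samples. For 35 of 103 members the log2 change was higher in NK cells and ILC1, and for 6 it was lower, where 31.6% of all features were called, 14.3% higher and 17.3% lower. The split was not stable: with median-of-ratios size factors it was 20 and 12, and the median difference went from 0.23 to 0.08 on the log2 scale. It was 21 and 12 without IL-2/CD25 sample 3 (median 0.13) and 21 and 11 with a mitochondrial ceiling of 10%. Without control sample 3 or IL-2/CD25 sample 4, 23 members were higher, and without control sample 1, 10 were lower. Ndufv3 fell in monocytes and macrophages from 354, 339.8 and 327 CPM to 114, 102, 117 and 158 CPM (log2 −1.62 ± 0.14) and in NK cells and ILC1 from 249, 216 and 222 CPM to 168, 156, 149 and 187 CPM (−0.48 ± 0.12), a difference of 1.25 ± 0.13. Cox6a1 differed by 1.05 ± 0.12, Ndufaf3 by 1.02 ± 0.27 and Cox8a by 0.81 ± 0.11. In the other direction Ndufaf7 differed by −0.94 ± 0.25, mt-Nd3 by −0.63 ± 0.13, and Ndufv1 by −0.53 ± 0.17, the last lost without control sample 2 (−0.48, adjusted p = 0.0879). The 41 calls became 15 with doublets kept, 24 with libraries thinned to equal UMIs and 27 without the sample block.

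**Figure D5:**
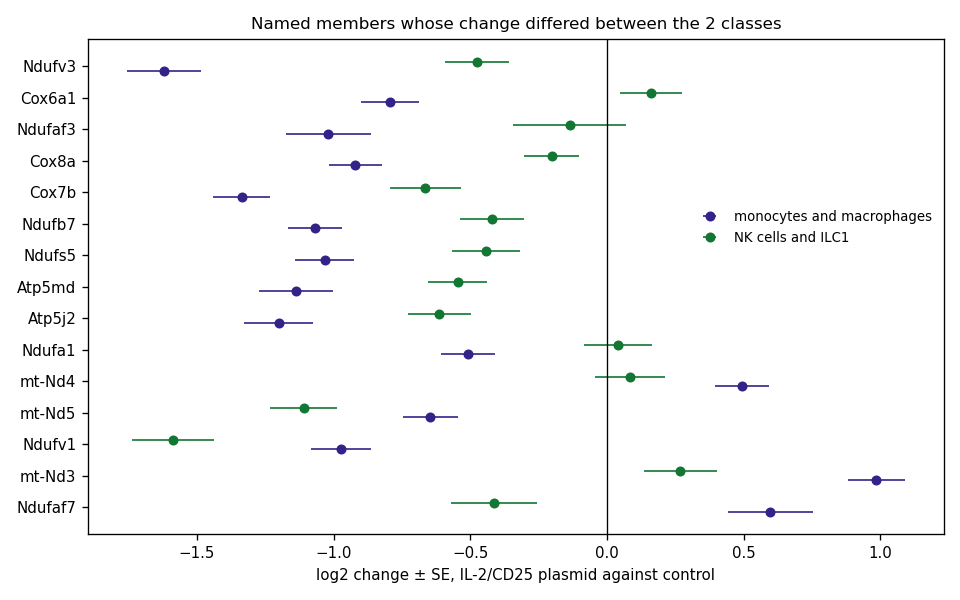
Log2 change ± SE with the IL-2/CD25 plasmid of 15 named members in monocytes and macrophages and in NK cells and ILC1. From Ndufv3 to Ndufa1 the change is less negative or above 0 in NK cells and ILC1, with Cox6a1 at 0.16 against −0.79, and from mt-Nd4 to Ndufaf7 it is lower there.

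Other genes of energy metabolism were counted from fixed lists. Of 20 glycolysis genes, which make pyruvate and lactate from glucose, 16 of 18 tested fell in monocytes and macrophages, 15 of 17 in CD8 T cells, 14 of 15 in B cells and 14 of 18 in NK cells and ILC1, with medians of −2.20, −2.05, −2.40 and −1.73. In plasmacytoid dendritic cells 14 of 17 fell, in neutrophils 14 of 16, in cDC1 13 of 17 and in CD4 T cells 11 of 18. Glycolysis genes summed to 13288 ± 248 CPM in control monocytes and macrophages and to 3266 ± 344 CPM with the plasmid. Of 19 citric acid cycle and pyruvate dehydrogenase genes, 15 fell in CD8 T cells, 11 in monocytes and macrophages, 10 in NK cells and ILC1 and 9 in B cells, with medians of −0.61, −0.35, −0.33 and −0.33. In cDC1 7 of them fell, in plasmacytoid dendritic cells 4, in CD4 T cells 2 and in neutrophils 10 of 18 tested. Of 44 electron carriers and assembly factors, 19 of 44 tested fell in CD8 T cells, 14 of 41 in monocytes and macrophages, 14 of 44 in NK cells and ILC1, 10 of 42 in B cells and 9 of 26 in cDC1. In plasmacytoid dendritic cells 6 of 41 fell, in neutrophils 4 of 22 and in CD4 T cells 2 of 38. For comparison, 30.4% of all features fell in CD8 T cells, 27.3% in monocytes and macrophages, 26.6% in NK cells and ILC1, 22.1% in B cells, 16.9% in cDC1, 13.8% in plasmacytoid dendritic cells, 28.7% in neutrophils and 7.12% in CD4 T cells. Of 20 regulators of mitochondrial genes, 3 were higher and 2 lower of 19 tested in CD8 T cells, against 28% and 30.4% of all features. In NK cells and ILC1 it was 5 and 3 of 20, against 24.7% and 26.6%. In monocytes and macrophages it was 3 and 3 of 18, against 27.5% and 27.3%. In each of these classes the share of regulators called was below that of all features. Tfam, the packaging factor of mitochondrial DNA, rose in B cells (0.71) and was not called in the other 7 classes.

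Several properties of the cells moved with the plasmid beside these genes, and their part in the results was not tested. Cells with a UMI of Mki67 or Top2a, genes of dividing cells, made up 43.4% to 54.6% of control CD8 T cells and 15.2% to 19.5% with the plasmid, and 25.7% to 36.2% and 10.7% to 16.3% of monocytes and macrophages. Without dividing cells the treated minus control difference of the summed nuclear members in CD8 T cells was −8359 CPM. With all CD8 T cells the means were 25778 CPM in controls and 13650 CPM with the plasmid. Of the dividing-cell list, 15 of 15 genes fell in NK cells and ILC1, and as many in CD8 T cells, where 26.6% and 30.4% of all features fell. In B cells 13 of 13 tested fell (22.1% of all features) and in CD4 T cells 13 of 15 (7.12%). In cDC1 8 of 15 fell (16.9%) and in neutrophils 7 of 12 (28.7%). Fewer fell in monocytes and macrophages, 2 of 15 (27.3%), and in plasmacytoid dendritic cells, 1 of 9 (13.8%). The 6 keratin-high markers, all detected in CD8 T cells of both groups, summed to 118 to 948 CPM in control CD8 T cells and 6.42 to 20.8 CPM with the plasmid. In NK cells and ILC1 5 of the 6 were detected in controls, at 152 to 819 CPM with Epcam at 0, and 6 with the plasmid, at 3.13 to 15.6 CPM. After subtraction of the estimated free RNA the difference of the summed nuclear members in NK cells and ILC1 was −4676 CPM. Before subtraction the means were 20664 CPM in controls and 14517 CPM with the plasmid.

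RNA depth and transcript length were also measured. CD8 T cells held a median of 6654 to 7249 UMIs in controls and 4353 to 5556 with the plasmid, and monocytes and macrophages 10740 to 11900 and 6484 to 8434. The nuclear transcript Malat1 was at 10155 ± 1380 CPM in control CD8 T cells and 21134 ± 1295 CPM with the plasmid, and at 17344 ± 4531 and 17523 ± 2061 CPM in monocytes and macrophages. The nuclear members have short transcripts, with a median of 581 bases against 906.5 for all features with a length. Other features of 500 to 1000 bases had a median change of −0.27 in CD8 T cells and −0.16 in monocytes and macrophages, where nuclear members of that length had −1.08 and −0.80.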

How the data were processed

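Single cells of 3 control and 4 IL-2/CD25 liver samples were read from the deposited matrices, which hold UMI counts per gene and barcode that the authors made with Cell Ranger 7.0.0 and bcl2fastq 5.0.1, per the submitters' processing notes (genome build not given in the sources used here). Barcodes with at least 500 UMIs, 200 genes and under 20% mitochondrial UMIs were kept, and no doublet caller was run. A class was assigned where the summed UMIs of its markers exceeded a Poisson expectation from free RNA (p below 0.001, with free RNA taken as 20% of UMIs). At least 2 of its markers also had to be detected. Barcodes passing for several classes were resolved at a ratio of 3 or left out as marker doublets (2488 barcodes), and 9555 matched no class. Classes are rebuilt from markers and are not the authors' annotation.

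Raw counts were summed per sample and class, with at least 20 cells, and tested with edgeR 4.0.16 (R 4.3.3; TMM scaling, filterByExpr, quasi-likelihood F test, Benjamini-Hochberg adjustment over all features tested in the class). Contrasts of classes and the interaction had the sample as a block. CPM in the text is unscaled, UMIs per 1000000 UMIs of the class, and errors are SD over samples or SE of the fit. The scripts were tested on simulated data. Alternatives were DESeq2 1.42.0, median-of-ratios factors, no low-count filter, mitochondrial ceilings of 10% or none, a stricter gate, dividing cells or free RNA removed, doublets kept, thinned libraries, mitochondrial features left out, a replicate block and each sample left out.

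Members and lists were chosen with earlier results of these data known. Named members passed the threshold and averaged 20 CPM or more, up to 10 per direction by log2 change, plus the mitochondrial members, isoform sets, assembly factors, complex II subunits, list examples and the most and least changed member of each complex. Promoters came from the RefSeq table of GRCm38.p6, where 78 of 98 nuclear members matched 77 distinct genes (both Atp5o features share 1), and transcript ends from GENCODE M21. The values of 1 member are not reported here, though it stays in the counts and sums. Keratin-high cells were not tested between groups, since 2 of 4 IL-2/CD25 samples had under 20.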

Additional observations from a re-analysis of the deposited data

Results flagged for a closer look

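Of 46 groups of 4 IL-2/CD25 samples checked for a sample far from the others, 3 had one, where chance gives about 1 in 20. IL-2/CD25 sample 4 stood above its group for the summed nuclear members in B cells, at 12023 CPM, and in plasmacytoid dendritic cells, at 18416 CPM. IL-2/CD25 sample 2 stood above its group for Ndufa12 in monocytes and macrophages, at 45.8 CPM.

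The change with the plasmid differed between NK cells and ILC1 and monocytes and macrophages for 41 members by the interaction test. The difference, as log2 change in NK cells and ILC1 minus that in monocytes and macrophages, was 1.25 for Ndufv3, 1.05 for Cox6a1, 1.02 for Ndufaf3 and 0.81 for Cox8a. It was 0.76 for Cox7b, 0.74 for Ndufb7, 0.70 for Ndufs5, 0.70 for Atp5md, 0.68 for Atp5j2 and 0.66 for Ndufa1. It was −0.94 for Ndufaf7, −0.63 for mt-Nd3, −0.53 for Ndufv1, −0.38 for mt-Nd5 and −0.33 for mt-Nd4, the last lost without IL-2/CD25 sample 1 (−0.28, adjusted p = 0.0533).

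Over all kept barcodes, whose class make-up differs between the groups, the pseudogene features Atp5l2-ps and Ndufs5-ps and 5 copies of mitochondrial genes, all outside the rule, were higher in every IL-2/CD25 sample than in every control. Other pseudogene features, such as Cox7c-ps1, Cox5b-ps and Atp5pb-ps, were lower in every IL-2/CD25 sample. The IL-2/CD25 means were 0.523 CPM for Atp5l2-ps and 4.99 CPM for Ndufs5-ps. The copies were at 1.76 CPM for Gm10925, 1.67 CPM for Gm13340, 0.819 CPM for Gm13341, 2.75 CPM for Gm28437 and 2.20 CPM for Gm28661.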

How the results depend on the processing

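Counts of called members stayed within 1.5 times of the value reported in 207 of 217 alternatives. The exceptions were CD4 T cells (52 called; 30 without dividing cells, 19 after free RNA subtraction), cDC1 (74; 42 with doublets kept), plasmacytoid dendritic cells (47; 9 after free RNA subtraction), CD8 T cells against NK cells and ILC1 (53; 34 with no replicate block) and the interaction (41; 27 with no replicate block, 15 with doublets kept, 24 thinned). Leaving out single samples gave 20 to 57 calls in CD4 T cells, 32 to 61 in plasmacytoid dendritic cells, 60 to 73 in cDC1 and 29 to 35 in the interaction. In plasmacytoid dendritic cells, free RNA subtraction reversed Ndufab1 (0.49), Uqcr11 (0.14), Ndufc2 (0.083) and Ndufb2 (0.055). The summed nuclear difference moved to −2475 without dividing cells and −2387 after free RNA subtraction in neutrophils, to −4914, −4676 and, with doublets kept, −7696 CPM in NK cells and ILC1, to −8359 CPM without dividing cells in CD8 T cells, to −4539, −4626 and, with the stricter gate, −4351 CPM in B cells, and to −505.2 CPM after free RNA subtraction in plasmacytoid dendritic cells; the mitochondrial one moved to 3083 CPM without dividing cells in cDC1. The cause was not tested. Replicate numbers did not pair the samples (correlations of −0.10 to 0.15); with them as a replicate block 36 members were called in CD4 T cells, 39 in plasmacytoid dendritic cells and 84 in CD8 T cells. CD4 T cells numbered only 33 to 56 per control sample, which limits their depth.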
